A study of Mus musculus with 40 samples.

Results

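The genes described here make, move and regulate cholesterol. The list held 31 genes, 18 for synthesis enzymes, 5 for regulators and 8 for transport and removal, and every probe annotated to a listed gene was taken, with older and newer symbols counted once. The array carried 34 such probes for 26 of the genes, and 25 genes, 15 of them synthesis enzymes, 4 regulators and 6 transport genes, had at least 1 probe above background, of 9926 genes above background in all. Mvk, Fdft1, Acat2, Npc1 and Nr1h2 had no annotated probe and were not analysed here. Abca1, which exports cholesterol from cells, had 1 probe, at 5.94 to 6.37 (log2 intensity), under background in each of the 40 arrays.

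The samples were whole brains of 40 male C57BL/6J mice, 1 array per animal, killed at 9 weeks of age. Dams ate a high-fat (HF) or a low-fat (LF) diet from before mating until weaning, and their sons were then weaned onto HF or LF food, which gave groups named by maternal and then post-weaning diet: HF-HF, HF-LF, LF-HF and LF-LF, with 10 animals each. All groups shared strain, sex and tissue, the labels name no other genotype, and exposure before mating, in the womb and during nursing came together in the maternal diet. The sons came from 12 cages in which dams had bred, 6 for each maternal diet, and a cage could hold more than 1 dam. Sons of both post-weaning diets came from 5 of the cages, and p-values over animals do not allow for shared cages unless this is stated. Levels are log2 fluorescence intensities, and a difference is the first-named group minus the second on that scale. Whole brain mixes many cell types, so fewer cells of a type and less RNA per cell cannot be told apart in these values.

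The adult brain makes nearly all of its own cholesterol, because the lipoproteins of the blood do not cross into it. Acetyl units are built into mevalonate, then into farnesyl pyrophosphate, squalene and lanosterol, which is trimmed step by step to cholesterol. The enzymes are under shared control. When sterols are scarce, SCAP escorts the SREBP transcription factors (genes Srebf1 and Srebf2) to the Golgi, where they are cut and released, and when sterols are plentiful, INSIG proteins hold SCAP back. Astrocytes package cholesterol with apolipoprotein E, neurons take it up through receptors such as LRP1, NPC2 helps it leave lysosomes, and the neuronal hydroxylase CYP46A1 turns surplus cholesterol into a form that can leave the brain.

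Promoter windows of 300 bases around the start site (RefSeq, GRCm38.p6) were found for 25 of the 31 genes. These are not the same 25 as those above background. Fdps, Fdft1, Sqle, Abcg1, Npc1 and Stard4 had no window, while Acat2, Mvk, Nr1h2 and Abca1 had a window but no level. They were searched on both strands for the core of the sterol regulatory element that SREBPs bind (TCACNCCAC), the box bound by their partner NF-Y (CCAAT) and the GC box bound by Sp1 (GGGCGG), none of which contains another. The NF-Y box was in 13 of 15 synthesis windows (86.7%), against 37.9% of the windows of all 27025 genes, and 8 of the 15 (53.3%) held at least 2 of them, against 12.2% of all. The GC box was in 14 of 15 (93.3%), against 35.9% of all. Among regulators the NF-Y box was in 3 of 5 windows and among transport genes in 2 of 5. The GC box was in 3 of 5 regulator and 4 of 5 transport windows, so it was not particular to the synthesis enzymes. Where a gene had more than 1 window, the first listed was used. Over any window of a gene the NF-Y box was in 14 of 15 synthesis enzymes, against 41.1% of all genes. The GC box was then in 4 of 5 regulators, against 38.2% of all genes. The sterol element core in this spelling was in 1.22% of all windows and, of the members, in Hmgcs1 only, at -137 to -129 from the start site. The bases before the start site of 4 members are printed on the gene's strand with motif matches in capitals: Hmgcs1 (chr13:119690101-119690350, plus strand) for the sterol element, Cyp51 (chr5:4104698-4104947, minus strand) and Sc5d (chr9:42264301-42264550, minus strand) as late enzymes whose levels went together between animals, and Insig1 (chr5:28071162-28071411, plus strand) as the regulator with the widest range of levels. The last capitals of Sc5d begin a GC box that runs past the start site. A match of letters is not a binding site.
Hmgcs1: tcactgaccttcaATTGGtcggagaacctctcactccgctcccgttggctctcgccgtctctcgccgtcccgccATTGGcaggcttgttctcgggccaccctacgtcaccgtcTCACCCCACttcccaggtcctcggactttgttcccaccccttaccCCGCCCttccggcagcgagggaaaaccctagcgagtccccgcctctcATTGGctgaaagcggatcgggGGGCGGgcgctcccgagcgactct
Cyp51: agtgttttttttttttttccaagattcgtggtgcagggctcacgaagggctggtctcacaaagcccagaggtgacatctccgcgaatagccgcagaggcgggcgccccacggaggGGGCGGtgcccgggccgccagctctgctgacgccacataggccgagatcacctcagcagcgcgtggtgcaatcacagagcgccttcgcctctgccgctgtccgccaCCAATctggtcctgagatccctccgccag
Sc5d: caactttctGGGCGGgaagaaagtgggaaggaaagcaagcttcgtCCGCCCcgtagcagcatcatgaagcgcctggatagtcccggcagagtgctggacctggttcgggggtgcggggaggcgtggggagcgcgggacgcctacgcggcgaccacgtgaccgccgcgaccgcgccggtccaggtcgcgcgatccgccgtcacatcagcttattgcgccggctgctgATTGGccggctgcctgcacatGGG
Insig1: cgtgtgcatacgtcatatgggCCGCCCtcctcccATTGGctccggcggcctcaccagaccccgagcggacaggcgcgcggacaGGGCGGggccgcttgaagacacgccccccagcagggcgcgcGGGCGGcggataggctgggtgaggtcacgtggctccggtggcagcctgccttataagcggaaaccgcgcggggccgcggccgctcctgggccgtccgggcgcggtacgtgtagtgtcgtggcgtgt

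**Figure D1:**
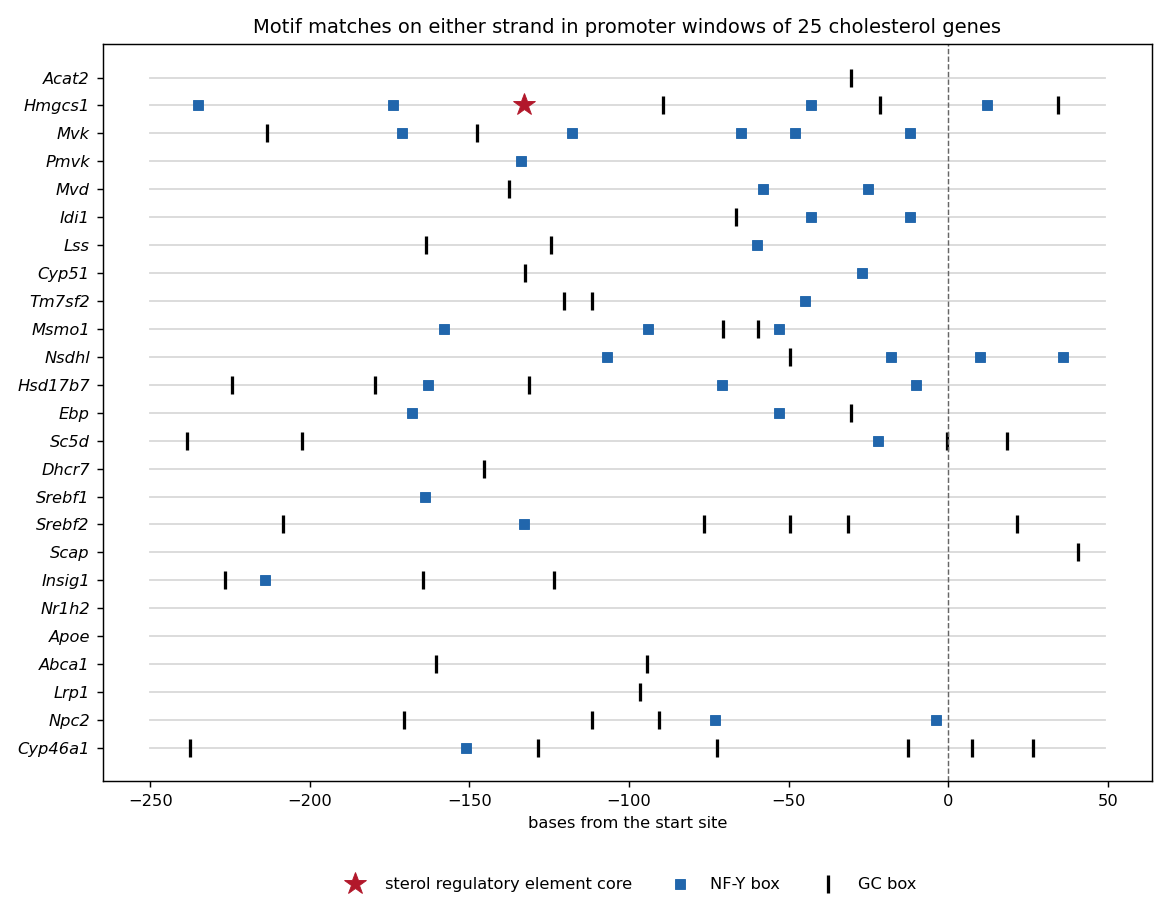
Motif matches on either strand in the promoter windows of 25 cholesterol genes, 1 row per gene with the first window listed, by distance in bases from the start site (dashed line). These 25 genes are not the same set as the 25 above background. The star is the sterol regulatory element core (Hmgcs1 only), squares are NF-Y boxes (in 13 of 15 synthesis windows) and upright bars are GC boxes (in 14 of 15).

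Of 25697 probes, 14350 were above background in at least 20 arrays and were tested, and 30 of the 31 member probes among them exceeded background in all 40 arrays, the exception being that of Idi1. The first principal component of the tested probes held 54.8% of the variance. Its score was above 0 in 4 of 10 HF-HF, 4 of 10 HF-LF, 2 of 10 LF-HF and 5 of 10 LF-LF animals. All groups thus had animals on both sides of 0. The highest score was 25.1 in LF-HF, against 39.2 in HF-HF, 39.3 in HF-LF and 39.3 in LF-LF, so LF-HF did not reach the upper end. By mean correlation with the rest, 5 arrays stood apart (1 HF-HF, 2 HF-LF and 2 LF-LF). Of the marker lists for brain, 10 of 10 astrocyte, 8 of 10 oligodendrocyte, 8 of 10 neuron and 7 of 8 microglia genes were above background, while the probe of the neuronal gene Snap25 was not.

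No member passed the test in any comparison, and few differed even without adjustment. The lowest adjusted p of a member in the 4 pairwise comparisons was 0.717 (limma, Benjamini-Hochberg over 14350 probes). Counts of members are on 1 probe per gene. For the maternal diet in sons fed HF (HF-HF against LF-HF), 0 of 25 members and 0% of all probes passed, and 2 members had an unadjusted p under 0.05, against 4.44% of all probes (637). For the maternal diet in sons fed LF (HF-LF against LF-LF), 0 of 25 members and 0% of all probes passed, and 0 members had an unadjusted p under 0.05, against 1.38% (198). For the post-weaning diet in sons of HF-fed dams (HF-HF against HF-LF), 0 of 25 members and 0% of all probes passed, and 0 members had an unadjusted p under 0.05, against 1.21% (173). For the post-weaning diet in sons of LF-fed dams (LF-HF against LF-LF), 0 of 25 members and 0% of all probes passed, and 1 member had an unadjusted p under 0.05, against 5.53% (793). The members' counts were thus near those of the array as a whole. Within 0.1 of zero lay 17 of the 25 differences between HF-HF and LF-HF, 22 between HF-LF and LF-LF, 19 between HF-HF and HF-LF, and 16 between LF-HF and LF-LF. These 4 comparisons share groups, so their values are given side by side and do not stand as separate observations.

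**Figure D2:**
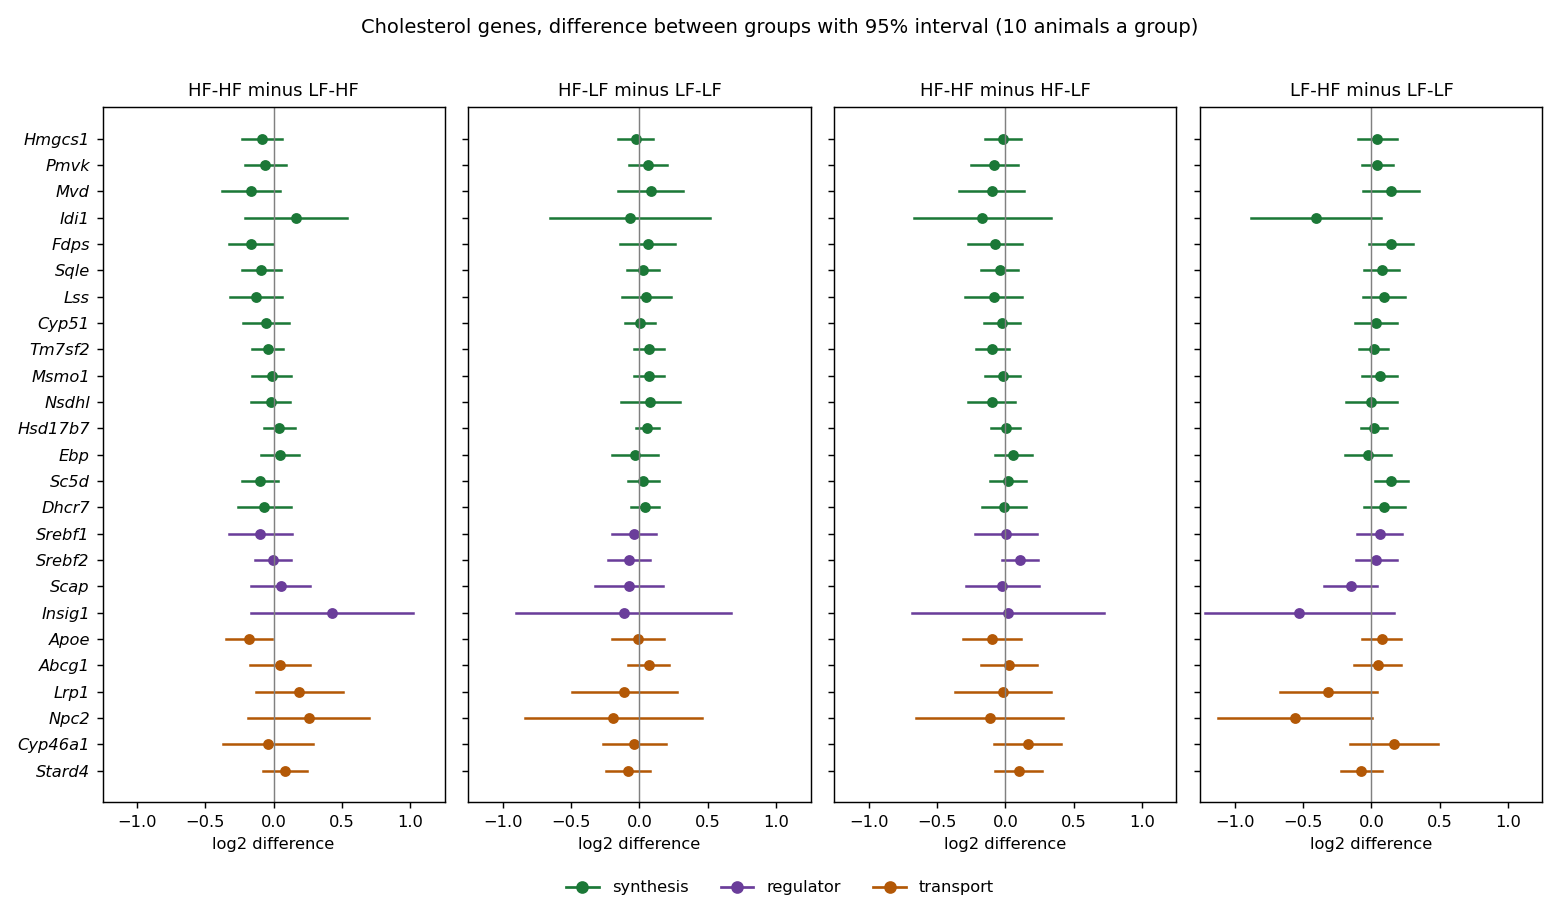
Difference between groups (log2 intensity) for 25 cholesterol genes, 1 probe per gene, in the 4 pairwise comparisons; points are limma estimates and lines 95% intervals, coloured by class. The intervals of Insig1, Npc2, Idi1 and Lrp1 are wide, and the intervals clear of 0 are those of Fdps and Apoe between HF-HF and LF-HF and of Sc5d between LF-HF and LF-LF.

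In the mevalonate arm, Hmgcs1 condenses acetyl units on the way to mevalonate. Its levels were 12.77, 12.87 and 13.23 (lowest, median and highest of 10) in HF-HF, 12.69, 12.96 and 13.16 in HF-LF, 12.62, 13.01 and 13.36 in LF-HF and 12.70, 12.98 and 13.16 in LF-LF animals. The 4 ranges overlapped for most of their length, and the largest of its pairwise differences, between HF-HF and LF-HF, was -0.08 ± 0.07 (SE, unadjusted p = 0.235). Fdps, which makes farnesyl pyrophosphate, had 10.06, 10.50 and 10.74 in HF-HF animals, against 10.35, 10.63 and 10.74 in LF-HF animals. HF-HF animals were under the LF-HF mean in 9 of 10 cases, although the highest animals of both groups were alike. The difference was -0.16 ± 0.08 (unadjusted p = 0.0467, adjusted p = 0.853, limma), and it was -0.07 with the score on the first principal component in the model. In LF-LF animals Fdps had 10.01, 10.51 and 10.72, and LF-HF differed from them by 0.14 ± 0.08 (unadjusted p = 0.0802).

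Mvd decarboxylates mevalonate pyrophosphate. It had 7.24, 7.73 and 8.17 in HF-HF animals, against 7.55, 7.88 and 8.09 in LF-HF animals. The HF-HF range enclosed that of LF-HF, and the difference was -0.16 ± 0.10 (unadjusted p = 0.116). Pmvk, the kinase before it, differed by -0.06 ± 0.07 in the same comparison. Idi1, the isomerase that supplies the starter of farnesyl pyrophosphate, had 6.33, 6.54 and 7.32 in LF-HF animals, against 6.30, 6.72 and 8.31 in LF-LF animals. Most animals of both groups sat near the background, which was 6.35 to 6.51, with a few well above it, and 32 of the 40 arrays exceeded their own background. The difference was -0.41 ± 0.23 (unadjusted p = 0.0892).

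In the middle of the pathway, Sqle oxidises squalene and Lss folds the product into lanosterol. Sqle had 10.02, 10.25 and 10.49 in HF-HF, 10.05, 10.32 and 10.51 in HF-LF, 10.09, 10.37 and 10.58 in LF-HF and 10.09, 10.27 and 10.40 in LF-LF animals. Its ranges overlapped, with differences of -0.09 ± 0.07 between HF-HF and LF-HF and 0.07 ± 0.06 between LF-HF and LF-LF, and its other probe gave -0.13 ± 0.10 and 0.02 ± 0.10. Lss differed by -0.13 ± 0.09 and 0.09 ± 0.07 in these comparisons.

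After lanosterol, Sc5d, the lathosterol desaturase (chr9:42251592-42264300, GRCm38.p6), had the smallest p of any member in a pairwise comparison. It had 7.43, 7.65 and 7.89 in LF-HF animals, against 7.28, 7.48 and 7.63 in LF-LF animals. LF-HF animals were above the LF-LF mean in 8 of 10 cases, and the ranges overlapped. The difference was 0.15 ± 0.06 (95% interval 0.03 to 0.26, unadjusted p = 0.0188, adjusted p = 0.717, limma). In the cages of LF-fed dams that gave sons to both diets it was 0.14 in cage 4 (2 LF-HF and 3 LF-LF animals) and 0.14 in cage 11 (3 and 2 animals).

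In sons of HF-fed dams Sc5d had 7.37, 7.52 and 7.83 in HF-HF animals, against 7.35, 7.54 and 7.70 in HF-LF animals. The ranges overlapped nearly in full, the difference was 0.02 ± 0.06, and in the 3 cages with both diets it was -0.17, 0.29 and -0.15. These are cages 10, 20 and 23, of which cage 10 gave 1 HF-HF and cage 20 gave 1 HF-LF animal. Between HF-HF and LF-HF animals Sc5d differed by -0.10 ± 0.06 (unadjusted p = 0.137).

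**Figure D3:**
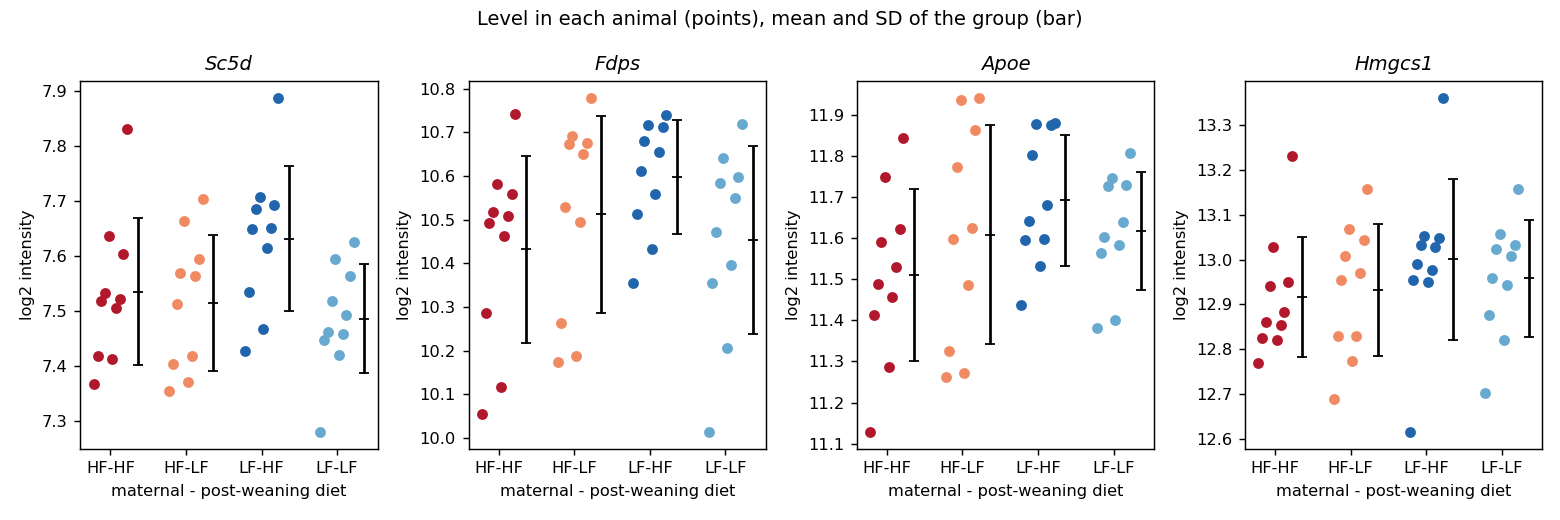
Log2 intensity of Sc5d, Fdps, Apoe and Hmgcs1 in each animal (points), by maternal and post-weaning diet, with the mean and SD of each group of 10 beside the points. The median of LF-HF is the highest for Sc5d (7.65) and that of HF-HF the lowest for Apoe (11.51), while the ranges of the groups overlap for each gene.

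The other late enzymes differed little. Tm7sf2, a sterol reductase, had 6.57, 6.76 and 7.01 in HF-HF animals, against 6.73, 6.83 and 7.08 in HF-LF animals. HF-HF animals were under the HF-LF mean in 8 of 10 cases, with overlapping ranges, and the difference was -0.10 ± 0.06 (unadjusted p = 0.110). Between HF-LF and LF-LF the members with the smallest p were Hsd17b7, a ketosteroid reductase, at 0.06 ± 0.04 (unadjusted p = 0.173), Tm7sf2 at 0.07 ± 0.05 (p = 0.192) and Msmo1, the sterol methyl oxidase, at 0.07 ± 0.05 (p = 0.199). Hsd17b7 had 9.82, 9.96 and 10.05 in HF-LF animals, against 9.79, 9.89 and 9.96 in LF-LF animals, and the ranges overlapped. Cyp51, the lanosterol demethylase, and Ebp, a sterol isomerase, lay within 0.1 of zero in each of the 4 comparisons, as did Dhcr7, which reduces 7-dehydrocholesterol to cholesterol.

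Nsdhl, the decarboxylating sterol dehydrogenase, was covered by 4 probes that did not move alike. Between LF-HF and LF-LF the probe with the highest intensity gave 0.00 ± 0.09 and that with the lowest 0.10 ± 0.04 (unadjusted p = 0.0249, adjusted p = 0.717). The second value was 0.02 with cage as a fixed block, 0.06 without cage 9 and 0.16 without cage 11. The first of these gave -0.10 ± 0.08 between HF-HF and HF-LF (unadjusted p = 0.241) and the other -0.02 ± 0.04. Over 40 animals with group means taken out, 1 pair of the probes correlated at r = 0.93 and the other 5 pairs at -0.19 to 0.20.

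As a class, the synthesis enzymes had small differences whose sign turned with the groups compared. Between HF-HF and LF-HF, 3 of 15 were above zero (median -0.06), while 42.2% of all probes were (median -0.02). Between HF-LF and LF-LF, 12 of 15 were above zero (median 0.05), while 50.1% of all probes were (median 0.00). Between HF-HF and HF-LF, 3 of 15 were above zero (median -0.04), while 53.1% of all probes were (median 0.00). Between LF-HF and LF-LF, 12 of 15 were above zero (median 0.04), while 62.0% of all probes were (median 0.03). The mean over the 15 enzymes in an animal ran from 8.63 to 8.82 in HF-HF, 8.70 to 8.84 in HF-LF, 8.68 to 8.83 in LF-HF and 8.68 to 8.82 in LF-LF. The groups thus overlapped in this mean, and all 4 group medians (8.71, 8.78, 8.77 and 8.73) lay inside the range of every group.

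The interaction asks whether the maternal diet acted differently under the post-weaning diets, as HF-HF minus LF-HF, less HF-LF minus LF-LF. On 1 probe per gene, 0 of the 25 members passed, as did 0% of all probes. Of these members 0 had an unadjusted p under 0.05 (limma), against 0.962% of all probes (138). A further probe of Nsdhl, its lowest in intensity, was at -0.12 with an unadjusted p under 0.05 (adjusted p = 0.998). Of the synthesis enzymes 13 of 15 were below zero (median -0.11), while 41.1% of all probes were above zero (median -0.02). On 1 probe per gene, the smallest p among members was that of Fdps, at -0.22 ± 0.12 (unadjusted p = 0.0807). Mvd followed at -0.25 ± 0.15 (p = 0.119), then Stard4 at 0.17 ± 0.11 (p = 0.128) and Sc5d at -0.13 ± 0.08 (p = 0.130). The highest estimate had a wide interval: Insig1 was at 0.54 ± 0.49, with an interval from -0.45 to 1.54.

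Averaged over post-weaning diets, the maternal diet left 0 of 25 members and 0% of all probes past the test, and 0 members with an unadjusted p under 0.05, against 4.24% of all probes (608). The synthesis median was -0.01, with 7 of 15 above zero. Averaged over maternal diets, the post-weaning diet left 0 of 25 members past the test, against 0.0139% of all probes (2 probes), and 1 member with an unadjusted p under 0.05, against 5.56% (798). That member was Sc5d, at 0.08 ± 0.04 (unadjusted p = 0.0496, adjusted p = 0.837). It was 0.05 with cage as a fixed block and 0.04 without cage 20.

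Among the regulators, Srebf2, whose product drives the cholesterol enzymes, had 8.00, 8.38 and 8.56 in HF-HF animals, against 8.04, 8.23 and 8.34 in HF-LF animals. HF-HF animals were above the HF-LF mean in 8 of 10 cases, and the ranges overlapped. The difference was 0.10 ± 0.06 (unadjusted p = 0.113). Between HF-LF and LF-LF it was -0.08 ± 0.07 (unadjusted p = 0.315). Srebf1, whose product leans toward fatty acid genes, differed by 0.01 ± 0.11 between HF-HF and HF-LF and by 0.06 ± 0.08 between LF-HF and LF-LF. Scap differed by -0.02 ± 0.13 and -0.15 ± 0.09 in these comparisons. Regulators as a class had 2 of 4 above zero between HF-HF and LF-HF, 0 between HF-LF and LF-LF, 3 between HF-HF and HF-LF and 2 between LF-HF and LF-LF.

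Insig1 had the widest range of the members, a 4.95-fold span over the 40 animals on its main probe, and its probes did not move alike. On that probe the levels were 7.19, 7.68 and 9.19 in HF-HF, 7.13, 7.62 and 9.20 in HF-LF, 6.96, 7.31 and 8.68 in LF-HF and 7.09, 7.94 and 9.26 in LF-LF animals. Each group held both low and high animals. Between HF-HF and LF-HF the difference was 0.43 ± 0.28 (unadjusted p = 0.147), and between LF-HF and LF-LF it was -0.53 ± 0.33 (unadjusted p = 0.127). Between HF-HF and HF-LF it was 0.02 ± 0.34. Within the cages that gave sons to both diets, HF-fed sons minus LF-fed sons came to -1.35 in cage 4 and 0.63 in cage 11 of LF-fed dams, and to 0.56, 1.06 and 0.32 in cages 10, 20 and 23 of HF-fed dams. Cage 4 alone of the 5 lay below zero. Cage 10 gave 1 HF-fed son and cage 20 gave 1 LF-fed son, so each of those values rests on 1 animal for that diet.

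The other kept probes of Insig1 gave 0.02 ± 0.10 and 0.09 ± 0.10 between HF-HF and LF-HF, and 0.04 ± 0.10 and -0.01 ± 0.09 between LF-HF and LF-LF. Over 40 animals with group means taken out, the main probe correlated with them at r = -0.24 and r = -0.17, while they correlated with each other at r = 0.89. With the first component also taken out, the main probe correlated with each at r = 0.37. A further probe of Insig1 was under background in all arrays. Which probe follows the transcript was not tested.

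The first principal component ran through several members. It held 93.98% of the within-group variance of the main Insig1 probe, but 11.6% and 7.13% of that of the other kept probes. It also held 92.16% for Npc2, 92.04% for Idi1 and 91.83% for Lrp1, all higher where the score was higher, and 83.00% for Fdps, which was lower there. These 5 of 25 members (20.0%) had over 80% of their variance along it, against 8.11% of all probes. The median share was alike, at 28.3% over the 25 members and 28.1% over all probes. Scap (72.70%) went with it, and Mvd (68.20%), Nsdhl (63.73%) and Lss (55.62%) against it. Of the 15 synthesis enzymes 12 went against it and 3 with it, and Hmgcs1, Msmo1, Hsd17b7, Sc5d and Dhcr7 had under 5% of their variance along it.

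The spread between animals of a group shrank accordingly. The within-group SD was 0.81 for Insig1, 0.64 for Npc2, 0.57 for Idi1 and 0.41 for Lrp1, against a median of 0.17 over all probes. With the component taken out it was 0.20, 0.18, 0.16 and 0.12. Before that step, Npc2 correlated with Insig1 at r = 0.95 and with Idi1 at r = 0.95 over the 40 animals, and Idi1 with Fdps at r = -0.89; afterwards the values were 0.35, 0.32 and -0.16. The origin of the component was not tested.

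**Figure D4:**
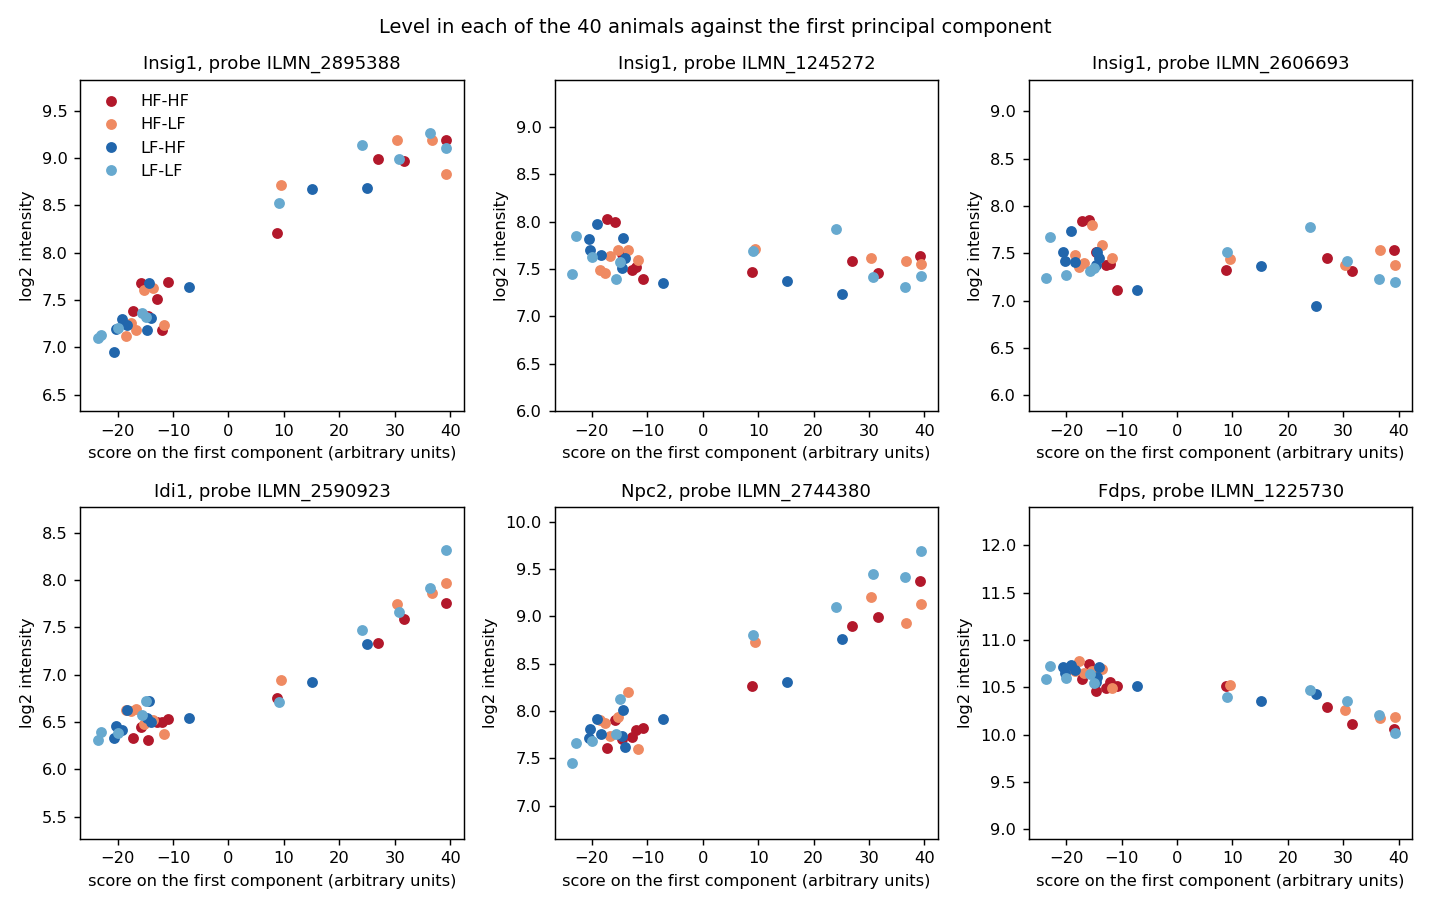
Log2 intensity of the 3 kept Insig1 probes and of Idi1, Npc2 and Fdps in each of the 40 animals, against the animal's score on the first principal component (arbitrary units), coloured by group; all panels span the same number of log2 units. The main Insig1 probe (top left), Idi1 and Npc2 climb along the score and Fdps declines, whereas the other Insig1 probes have 11.6% and 7.13% of their within-group variance along it.

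The means of some marker lists moved along this component too. With group means taken out, the mean of the 10 astrocyte markers correlated with the score at r = 0.77, that of the 7 microglia markers at r = 0.84 and that of the 6 endothelium markers at r = -0.64 (40 animals). The other lists followed it less closely or not at all, at r = -0.35 for 5 blood, 0.33 for 8 neuron, -0.29 for 8 oligodendrocyte and 0.01 for 8 choroid plexus markers. Single markers of a list did not all move alike. Between LF-HF and LF-LF, 6 of 10 astrocyte markers were higher (median 0.08, range -0.72 to 0.18). Of the microglia markers 5 of 7 were higher there (median 0.16, range -0.51 to 0.26). Which markers carry the means was not tested. The groups overlapped in the astrocyte mean, which ran from 9.84 to 10.27 in HF-HF, 9.92 to 10.43 in HF-LF, 9.83 to 10.30 in LF-HF and 9.85 to 10.42 in LF-LF animals. The SREBP genes went with different markers: Srebf1 correlated at r = 0.72 with the mean of the 8 oligodendrocyte markers and at r = -0.67 with that of the 8 neuron markers, and Srebf2 at r = -0.56 and r = 0.72. Cyp46a1 went with the neuron markers (r = 0.57) and Apoe against them (r = -0.60). These correlations are descriptions over animals that share arrays and normalisation, and the part of cell composition in the members' levels was not tested.

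Among the transport genes Apoe, which encodes the main lipid carrier made by astrocytes (chr7:19696244-19701310, GRCm38.p6), had the smallest p. It had 11.13, 11.51 and 11.84 in HF-HF animals, against 11.44, 11.66 and 11.88 in LF-HF animals. HF-HF animals were under the LF-HF mean in 8 of 10 cases, and the ranges overlapped. The difference was -0.18 ± 0.08 (95% interval -0.35 to -0.01, unadjusted p = 0.0356, adjusted p = 0.853, limma), and it was -0.16 with cage means as replicates and -0.13 with the score on the first component in the model. The mean of 5 of 5 blood markers, with which Apoe correlated at r = 0.58, ran from 7.64 to 8.52 in HF-HF and from 8.00 to 9.11 in LF-HF animals, and all 5 were lower in HF-HF (median difference -0.34). Apoe also correlated with the mean of the 6 endothelium markers, at r = 0.69, and 4 of those were lower in HF-HF (median difference -0.01). With the first component taken out too, the blood and endothelium values were r = 0.50 and r = 0.44. With the astrocyte mean Apoe correlated at r = -0.26, and at r = 0.58 once that component was taken out. The neuron, microglia, oligodendrocyte and choroid plexus means had r = -0.60, -0.52, 0.39 and 0.23. Without the component these were -0.55, 0.11, 0.27 and 0.33. In HF-HF 8 of 8 oligodendrocyte markers were lower (median -0.10) and 8 of 8 choroid plexus markers higher (median 0.19). Neuron markers were higher in 6 of 8 cases, microglia markers lower in 5 of 7 and astrocyte markers lower in 6 of 10. The part of these lists in the Apoe difference was not tested. Between HF-LF and LF-LF animals Apoe differed by -0.01 ± 0.09.

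Npc2 had 7.62, 7.86 and 8.76 in LF-HF animals, against 7.45, 8.46 and 9.69 in LF-LF animals. LF-HF animals were under the LF-LF mean in 9 of 10 cases, and the LF-LF range enclosed theirs. The difference was -0.56 ± 0.27 (unadjusted p = 0.0506), with -1.30 in cage 4 and 0.59 in cage 11. Between HF-HF and HF-LF Npc2 differed by -0.11 ± 0.26. In the cages of HF-fed dams with both diets HF-fed sons were higher, by 0.43 in cage 10, 0.46 in cage 20 and 0.08 in cage 23. Cage 10 gave 1 HF-fed son and cage 20 gave 1 LF-fed son. Choroid plexus markers (8 of 10 listed genes measured, all above background) were lower in LF-HF than in LF-LF in 8 of 8 cases, with a median difference of -0.49, and their mean ran from 6.61 to 9.37 in LF-HF and from 6.85 to 9.36 in LF-LF animals. Oligodendrocyte markers were lower in 7 of 8 cases (median -0.10). With group means taken out, Npc2 correlated over the 40 animals with the choroid plexus mean at r = 0.23 and the oligodendrocyte mean at r = -0.06. These were r = 0.76 and r = 0.80 once the first component was taken out too. At the first step the astrocyte (r = 0.83), microglia (r = 0.74) and endothelium (r = -0.60) means were closer to Npc2. At the second step they had r = 0.51, -0.39 and 0.08. The neuron mean went from r = 0.12 to -0.72 and the blood mean from -0.20 to 0.50. The part of these cells in the Npc2 difference was not tested. Lrp1 had 6.66, 6.89 and 7.56 in LF-HF animals, against 6.81, 7.13 and 8.03 in LF-LF animals. These ranges overlapped, and the difference was -0.32 ± 0.17 (unadjusted p = 0.0774). Both genes follow the first component, on which LF-HF had 2 and LF-LF 5 animals above 0.

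Cyp46a1 had 7.51, 7.69 and 8.51 in HF-HF animals, against 7.47, 7.60 and 8.00 in HF-LF animals. The ranges overlapped, and the difference was 0.16 ± 0.12 (unadjusted p = 0.183), beside 0.17 ± 0.15 between LF-HF and LF-LF. Abcg1, a cholesterol exporter, lay within 0.1 of zero in all 4 pairwise comparisons. Stard4, a carrier of sterols in the cytosol, had 8.52, 8.89 and 9.09 in HF-HF animals, against 8.54, 8.75 and 9.10 in HF-LF animals. It differed by 0.10 ± 0.08 there (unadjusted p = 0.253) and by -0.09 ± 0.08 between HF-LF and LF-LF (unadjusted p = 0.285). Transport genes as a class had 4 of 6 above zero between HF-HF and LF-HF, 1 between HF-LF and LF-LF, 3 between HF-HF and HF-LF and 3 between LF-HF and LF-LF.

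Stard4 and Hmgcs1 had the strongest correlation of the 300 member pairs once group means and the first component were taken out, at r = 0.80 (Spearman rho = 0.81, 40 animals), or 0.78 without the 2 animals farthest from the median of Hmgcs1. With only group means taken out it was r = 0.62 (rho = 0.63). By group it was r = 0.69 in HF-HF, 0.85 in HF-LF, 0.82 in LF-HF and 0.14 in LF-LF, with 10 animals each, and the LF-HF value rested on 2 animals, being 0.28 without those farthest from the median. Cyp51 and Sc5d correlated at r = 0.53 (rho = 0.53) with group means taken out. Dhcr7 and Abcg1 correlated at r = 0.63 (rho = 0.31), which was 0.30 without the 2 animals farthest from the median of Dhcr7. Over the 105 pairs of synthesis enzymes the median was r = 0.09, against 0.05 over pairs of all 9926 genes. Above 0 were 58.1% of these pairs, against 54.4% over all genes. Positive and negative pairs offset each other in such a median, so it does not measure how closely the class was coupled. The pairs named here were picked after their values were seen and share arrays.

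**Figure D5:**
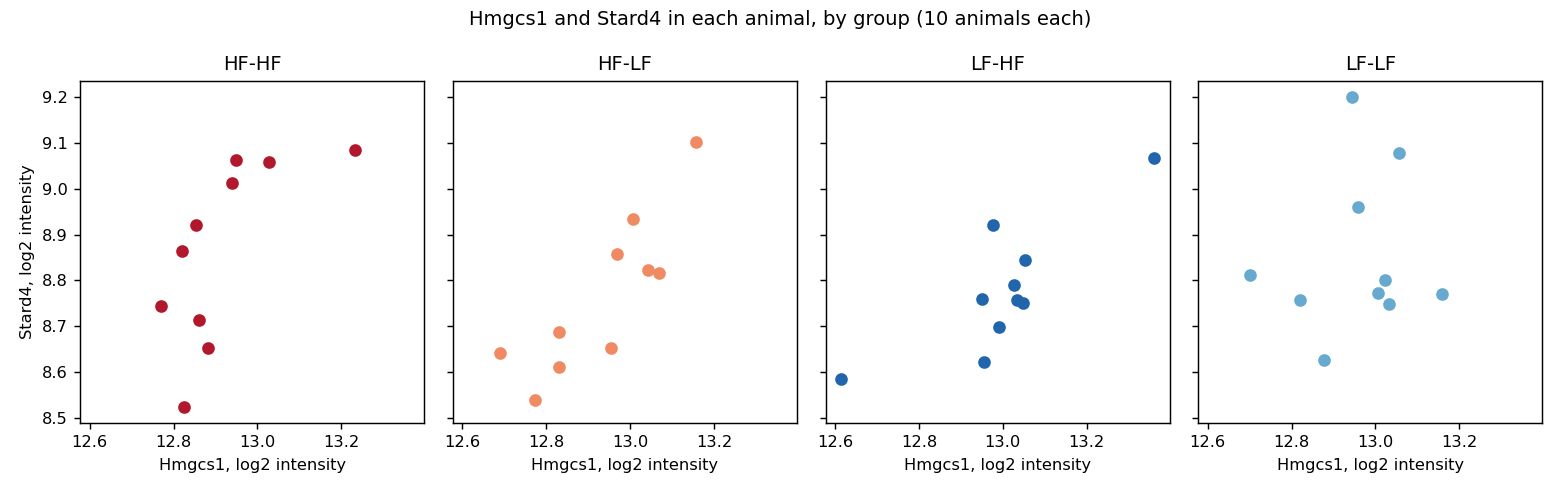
Log2 intensity of Stard4 against that of Hmgcs1 in each animal, 1 panel per group of 10. The points climb together in HF-HF (r = 0.69), HF-LF (r = 0.85) and LF-HF (r = 0.82, or 0.28 without 2 animals) and scatter in LF-LF (r = 0.14).

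Body measures were set against the members within groups, as a slope per SD of the measure over all animals. Weight at 3 weeks ran from 9.38 to 13.36 g in HF-HF, 9.71 to 11.96 g in HF-LF, 7.82 to 11.1 g in LF-HF and 8.33 to 10.79 g in LF-LF animals. Here 0 of 25 members and 0% of all probes passed, and 1 member had an unadjusted p under 0.05, against 0.495% of all probes (71). That was Msmo1, at 0.06 ± 0.03 (unadjusted p = 0.0327, adjusted p = 1.00), with a positive slope in 3 of 4 groups and a negative one in HF-LF. It was 0.04 without cage 14 and also 0.04 without cage 20. A second weight, which its label ties to weaning, ran from 28.44 to 34.06 g in HF-HF, 20.38 to 25.82 g in HF-LF, 27.2 to 32.6 g in LF-HF and 23.38 to 26.83 g in LF-LF animals, well above the weights at 3 weeks. For it 0 of 25 members and 0% of all probes passed, and 1 member had an unadjusted p under 0.05, against 0.634% of all probes (91). That was Tm7sf2, at -0.11 ± 0.04 (unadjusted p = 0.00568, adjusted p = 1.00), with a negative slope in all 4 groups. The groups were not alike in this, with r = -0.57 in HF-HF, -0.72 in HF-LF, -0.28 in LF-HF and -0.09 in LF-LF. The slope over all animals was -0.07 without cage 12. For blood glucose 0 of 25 members and 0% of all probes passed, and 0 members had an unadjusted p under 0.05, against 2.49% of all probes (358).

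Further genes of lipid metabolism did not pass the test either. Of 27 other sterol handling genes 19 were measured, and 0 passed in the 4 pairwise comparisons. Above zero were 3 of 19 between HF-HF and LF-HF (median -0.03), 7 between HF-LF and LF-LF (median -0.03), 8 between HF-HF and HF-LF (median -0.02) and 12 between LF-HF and LF-LF (median 0.03). An unadjusted p under 0.05 was found for 1 of 19 between HF-HF and LF-HF, Hsd3b7 of bile acid synthesis, at -0.19 ± 0.08 (p = 0.0337), and for 0 in the other pairwise comparisons. All 12 fatty acid synthesis genes were measured and 0 passed. Above zero were 5 of 12 between HF-HF and LF-HF (median -0.05), 3 between HF-LF and LF-LF (median -0.04), 6 between HF-HF and HF-LF (median -0.01) and 5 between LF-HF and LF-LF (median -0.01). An unadjusted p under 0.05 was found for 1 of 12 between HF-HF and HF-LF, the fatty acid synthase Fasn, at 0.13 ± 0.05 (p = 0.0156), and for 0 in the other pairwise comparisons. In the interaction Fasn was at 0.17 ± 0.08 (p = 0.0330). Hsd3b7 and Fasn are named after their values were seen.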

How the data were processed

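Whole-brain RNA was hybridised to Illumina MouseRef-8 beadchips, with 1 array per animal. The labels used here do not give the chip of an array or its position on it. The deposited values were fluorescence intensities on a linear scale (48.4 to 30357), read out by the authors in BeadStudio, whose version is not given in the sources used here, after quantile normalisation across all 40 brain samples. Symbols came from the platform annotation, which named 23978 of 25697 probes. Intensities were log2-transformed without an offset. Background in an array was set at percentile 95 of its 1362 chemosensory receptor probes, and probes above it in at least 20 arrays were tested. The kept probe with the highest mean stood for a gene, and its other probes were given beside it. Pairs of groups were compared on their 20 arrays, and the interaction, averages and slopes on all 40, in limma 3.58.1 (R 4.3.3; eBayes with a variance trend), with Benjamini-Hochberg adjustment over 14350 probes. The code was tested on simulated data. Arrays have no read depth, so their number limits the precision. The median SE over members was 0.07 to 0.08 for a pairwise difference and 0.12 for the interaction. Groups came from the labels. All members were named, and those described with levels were the up to 5 with the smallest unadjusted p in a pairwise comparison, with a few added for their place in the pathway. Genes of other lists were to be named only if they passed. The members and lists were chosen with earlier results of these data known. Alternatives covered normalisation, offset, filter, array weights, test, cages, the first principal component and arrays or cages left out.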

Additional observations from a re-analysis of the deposited data

Results flagged for a closer look

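Each member was screened for a single animal far from the other 9 of its group, by its gap to the nearest of them as a share of the group's range (Dixon's criterion), over 100 combinations of gene and group. Chance alone marks about 1 in 20 of such groups, and 4 were marked. In LF-HF, 1 animal had the highest Dhcr7, at 7.96 against 7.29 to 7.50 in the other 9, and the same animal had the highest Abcg1, at 8.66 against 7.87 to 8.18. Another LF-HF animal had the highest Hsd17b7, at 10.13 against 9.79 to 9.94. An LF-LF animal had the lowest Tm7sf2, at 6.58 against 6.75 to 6.93.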

How the results depend on the processing

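No member passed under any alternative run, and the lowest adjusted p of a member was 0.242 (limma, LF-HF against LF-LF, without cage 11). The differences and slopes with an unadjusted p under 0.05 kept their sign in each alternative. Sc5d between LF-HF and LF-LF ran from 0.11 to 0.20, and Fdps between HF-HF and LF-HF from -0.21 (cage means as replicates) to -0.07 (first principal component as covariate). The synthesis median kept its sign in the 4 pairwise comparisons and the interaction, but in each average and slope at least 1 setting turned it. With cage as a fixed block, which uses 5 cages, 13 of 25 members changed sign in the post-weaning average. Counts over all probes were 1 in place of 0 for HF-HF against HF-LF (cyclic loess, array weights, first component as covariate), 1 in place of 0 for the interaction (no filter) and 1 in place of 0 for the maternal average (first component as covariate). For the post-weaning average they were 0 in place of 2 without the arrays standing apart and with cage as a fixed block, and ran from 0 to 3 with 1 cage left out. The cause was not tested. The count of members with over 80% of their variance along the first component was 5, or 4 without the arrays standing apart, among 4 settings added after seeing the data. No paired analysis was possible by animal number because those numbers are not shared between groups; pairing within cages is the fixed block above. Shared cages and the number of arrays limit what could be detected.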
